A study of Homo sapiens with 36 samples.

Results

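The regions described here are 1772 stretches of the genome in DU145 prostate cancer cells that held an MTF2 peak in both replicates after depletion of the long isoform of PHF19 (PHF19L) and no MTF2 peak in replicate 1 of the control. They were chosen by the peak calls themselves: overlapping peaks of shPHF19L#4 replicates 1 and 2 were merged, which gave 3136 regions with a peak from both, and those that overlapped no peak of shCTR replicate 1 were kept (56.5%). The other 1364 regions overlapped such a peak and serve as the comparison. Merging all 4 MTF2 lists gave 51367 regions. The control shCTR cells carry a control short hairpin RNA, and shPHF19L#4 cells carry a hairpin against PHF19L. This is a single hairpin in a single cell line, with 2 ChIP-seq replicates for each target and condition. Peak lists of MTF2 and H3K27me3 from both conditions were used, together with those of PHF19, EZH2 and SUZ12 from shCTR cells. The study added fly chromatin to the MTF2, EZH2, SUZ12 and H3K27me3 ChIPs as a spike-in, but peak lists are not scaled by it. Sequencing depth is unknown, because a peak list gives no total of reads.

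PRC2 is the Polycomb complex that methylates lysine 27 of histone H3, and its mark H3K27me3 covers the promoters of many developmental genes that a differentiated cell keeps silent. EZH2 is its catalytic subunit and SUZ12 a core scaffold. MTF2 and PHF19 are Polycomb-like proteins that join the core in alternative assemblies, and MTF2 binds DNA rich in unmethylated CpG.

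A name such as "only after depletion" does not describe these regions, because the choice used a single control list. The shCTR replicate 2 list, which the choice did not use, had an MTF2 peak in 1571 of the 1772 members (88.7%, 95% Wilson interval 87.1 to 90.1, for counting error only). That list had a peak in 1313 of the 1364 comparison regions (96.3%). In 201 members (11.3%) neither control list had a peak. The control lists differed widely in size, with 2516 MTF2 peaks in replicate 1 and 32254 in replicate 2, against 4216 and 34623 in shPHF19L#4. The mirrored choice, regions of both shCTR replicates without a peak of shPHF19L#4 replicate 1, kept 8.34% of 1474.

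As examples, 200 bases around the centre of the overlap of both replicate peaks are given for members with high scores. They are the first 4 that lay outside annotated UTRs among the 10 highest MTF2 scores in shPHF19L#4 replicate 2. At this end the score does not rank the sites by strength. All sequences are the plus strand of GRCh37 (hg19), 5′ to 3′, with every CpG in capitals. Those of HOXB7/HOXB8 and RBFOX3 are intronic, and the others are intergenic. POU3F3 and GOLIM4 are the nearest start sites of their windows.
HOXB7/HOXB8 (chr17:46695003-46695202): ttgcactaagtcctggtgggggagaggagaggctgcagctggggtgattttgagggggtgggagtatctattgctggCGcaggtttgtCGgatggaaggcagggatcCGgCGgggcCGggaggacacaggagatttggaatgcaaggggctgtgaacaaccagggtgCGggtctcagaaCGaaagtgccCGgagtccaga
POU3F3 (chr2:105489279-105489478): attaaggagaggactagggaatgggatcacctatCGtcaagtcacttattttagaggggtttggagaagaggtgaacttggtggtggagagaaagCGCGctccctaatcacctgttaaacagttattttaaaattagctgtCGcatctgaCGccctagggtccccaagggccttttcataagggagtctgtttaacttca
GOLIM4 (chr3:167967522-167967721): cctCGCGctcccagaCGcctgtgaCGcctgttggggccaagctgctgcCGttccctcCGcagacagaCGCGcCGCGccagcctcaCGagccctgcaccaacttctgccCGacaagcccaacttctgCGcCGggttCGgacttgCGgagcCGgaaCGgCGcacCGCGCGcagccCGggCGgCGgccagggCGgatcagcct
RBFOX3 (chr17:77254477-77254676): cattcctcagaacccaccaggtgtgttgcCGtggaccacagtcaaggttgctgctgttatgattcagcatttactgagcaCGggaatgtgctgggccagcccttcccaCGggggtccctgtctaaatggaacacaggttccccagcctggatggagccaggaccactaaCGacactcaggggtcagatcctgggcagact
These windows held 8, 5, 26 and 4 CpG.

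By the same rule, 4 windows are given for the members with the highest scores among the 201 that neither control list contained. The window of NCAN lies outside genes and those of PRDM16, PTPRN2 and ADGRL1 in introns.
NCAN (chr19:19322539-19322738): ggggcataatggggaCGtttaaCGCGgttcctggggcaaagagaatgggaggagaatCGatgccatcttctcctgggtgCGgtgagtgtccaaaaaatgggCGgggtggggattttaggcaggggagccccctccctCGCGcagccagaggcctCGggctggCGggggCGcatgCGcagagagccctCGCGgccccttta
PRDM16 (chr1:2986671-2986870): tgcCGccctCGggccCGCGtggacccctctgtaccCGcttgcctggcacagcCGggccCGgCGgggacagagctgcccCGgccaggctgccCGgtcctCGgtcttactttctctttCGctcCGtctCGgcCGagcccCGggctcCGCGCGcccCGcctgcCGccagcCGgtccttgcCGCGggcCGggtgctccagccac
PTPRN2 (chr7:157483826-157484025): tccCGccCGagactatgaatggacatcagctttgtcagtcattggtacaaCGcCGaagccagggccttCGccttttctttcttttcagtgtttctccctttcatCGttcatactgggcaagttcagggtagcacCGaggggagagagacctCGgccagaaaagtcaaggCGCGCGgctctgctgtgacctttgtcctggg
ADGRL1 (chr19:14316559-14316758): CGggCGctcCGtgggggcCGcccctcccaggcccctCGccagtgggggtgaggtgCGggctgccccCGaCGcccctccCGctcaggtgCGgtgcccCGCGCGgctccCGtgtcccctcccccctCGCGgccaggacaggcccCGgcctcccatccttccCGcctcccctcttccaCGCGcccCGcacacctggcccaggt
They held 14, 25, 11 and 21 CpG.

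For comparison, the windows of the highest-scoring regions that shCTR replicate 1 also contained are an exonic window of SYPL2 and an intergenic one, where the nearest protein-coding start is that of the Notch effector HES1, 68.7 kb from the middle of the region.
SYPL2 (chr1:110009592-110009791): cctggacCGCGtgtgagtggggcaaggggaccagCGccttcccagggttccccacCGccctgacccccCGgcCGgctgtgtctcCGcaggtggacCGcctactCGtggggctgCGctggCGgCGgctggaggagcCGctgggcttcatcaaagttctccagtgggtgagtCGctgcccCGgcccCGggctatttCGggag
HES1 (chr3:193922096-193922295): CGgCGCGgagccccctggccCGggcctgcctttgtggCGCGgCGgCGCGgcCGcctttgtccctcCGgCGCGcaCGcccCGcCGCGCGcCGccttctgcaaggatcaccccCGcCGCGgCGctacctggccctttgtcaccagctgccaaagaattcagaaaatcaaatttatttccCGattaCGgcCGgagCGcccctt
They held 17 and 27 CpG.

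Counted over 300 bases at the centre, members held a median of 12 CpG (interquartile range 4 to 29), compared with 17 in the regions also called in shCTR replicate 1 and 2 in 285866 windows placed every 10000 bp along the genome. At least 10 CpG were found in 54.5% of members, 65.2% of the comparison regions and 4.41% of the genome windows. The median GC content was 58.3%, 61.3% and 40% in the same order. Members were of different kinds. At promoters the median was 26 CpG, and away from them it was 4. The members that neither control list contained had a median of 3 CpG and a GC content of 45.3%, nearer to the genome windows than to the other members, so the CpG-rich examples printed for NCAN, PRDM16, PTPRN2 and ADGRL1 are not typical of them. CpG content also followed the MTF2 score in shPHF19L#4 replicate 2. With the members ranked by that score and divided into 4 groups of 443, the medians from the lowest to the highest group were 3, 10, 22 and 24 CpG. The score also differed by place, with a median of 1907 at promoters, 439 in the rest of a gene and 443 between genes. The groups were not divided by place, so CpG content and promoter position cannot be told apart here.

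**Figure D1:**
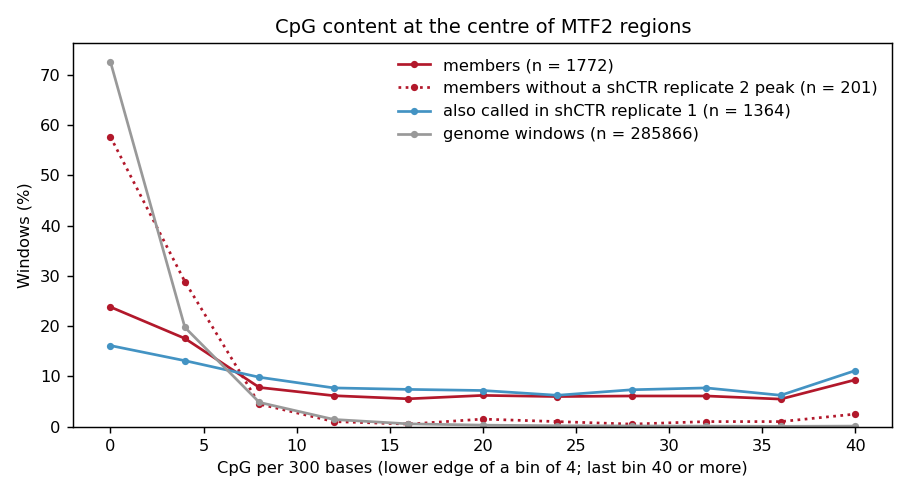
CpG in 300 bases at the centre of MTF2 regions, in bins of 4, as a percentage of windows, for members, members without a shCTR replicate 2 peak, regions also called in shCTR replicate 1 and genome windows. Members spread over the whole range with a median of 12, whereas the 201 members without a shCTR replicate 2 peak lie near the genome windows, with medians of 3 and 2.

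Members were narrower than the comparison regions, with a median width of 3159 bp (391 to 23108 bp) against 4586 bp. A promoter, taken as 2.5 kb to each side of a protein-coding start site, was overlapped by 856 members (48.3%, Wilson interval 46.0 to 50.6) and 853 comparison regions (62.5%). A further 386 members (21.8%) lay in the rest of a gene and 530 (29.9%) between genes. The median distance from the midpoint of a member to a start site was 5683 bp, compared with 1306 bp for the comparison regions. It lay more than 50 kb away in 411 members (23.2%) and 226 comparison regions (16.6%). Of the 201 members that neither control list contained, 24 (11.9%) were at a promoter and 104 (51.7%) between genes.

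The choice set no threshold on height beyond the cut-off of the peak calls themselves, and used only whether called peaks overlapped. The member nearest to a shCTR replicate 1 peak, by C1QTNF8 on chromosome 16 (1152890 to 1156620), lay 8 bp from it, and those by RPS29 and ZFHX3 lay 47 and 52 bp away. On the other side, the comparison region near GDNF on chromosome 5 (38001457 to 38004707) overlapped a control peak by 9 bp and that near NPAS3 on chromosome 14 by 35 bp. Few regions were this close. Within 1 kb of a control peak lay 46 members (2.60%), within 10 kb 225 (12.7%), and 1105 (62.4%) were more than 100 kb from any.

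By chromosome, members were 66.7% of the 222 shPHF19L#4 regions on chromosome 7 and 40.3% of the 201 on chromosome 14, the highest and lowest shares among autosomes. The copy number of these chromosomes was not analysed here.

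The replicate 2 lists give a MACS score for each peak, which is larger for a smaller P value of the peak, starts at 50, and stands at 3100 for many of the strongest peaks, where differences can no longer be seen. A score also grows with sequencing depth. The members' peaks in shPHF19L#4 replicate 2 were part of the choice, so their scores are given as a description. Over the 1571 members with a peak in both replicate 2 lists, the median score was 367 in shCTR and 1360 in shPHF19L#4, and the median ratio was 3.09. The score was at least 2-fold higher in shPHF19L#4 in 1269 of them (80.8%), beside 42.7% of all 14054 MTF2 regions with a peak in both lists. It was lower in shPHF19L#4 in 47 members (2.99%), beside 20.3% of all these regions and 2.44% of the comparison regions. The comparison regions had medians of 1382 and 3100 and a median ratio of 1.93, but 793 of the 1313 stood at 3100 or more in shPHF19L#4 and 282 in shCTR, which holds that ratio down. For members these numbers were 273 and 7.

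The ratios were also compared within bins of the shCTR score. Among regions with a shCTR score from 500 to 1000, the median ratio was 3.20 for 392 members, 3.19 for 186 comparison regions and 2.41 for 238 other MTF2 regions of the lists. From 200 to 500, the bin with the most members, it was 3.75, 3.19 and 2.01 in the same order, over 426, 161 and 1425 regions. From 100 to 200 it was 3.29, 2.84 and 1.38, over 295, 100 and 3351 regions. From 50 to 100 it was 3.50, 2.87 and 1.49, over 213, 63 and 6094 regions. From 1000 to 3100 it was 2.07 for 238 members, 1.77 for 521 comparison regions and a value between these for 44 others. The upper end of the score limits the ratio in that bin. All of these regions had a peak in both replicate 2 lists, and the other regions were those outside the 3136 regions with a peak in both shPHF19L#4 replicates. Members and comparison regions were thus chosen by their shPHF19L#4 peaks and the others were not. The lower ratios of the others can follow from that choice, which was not tested, so the bins are a description only.

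**Figure D2:**
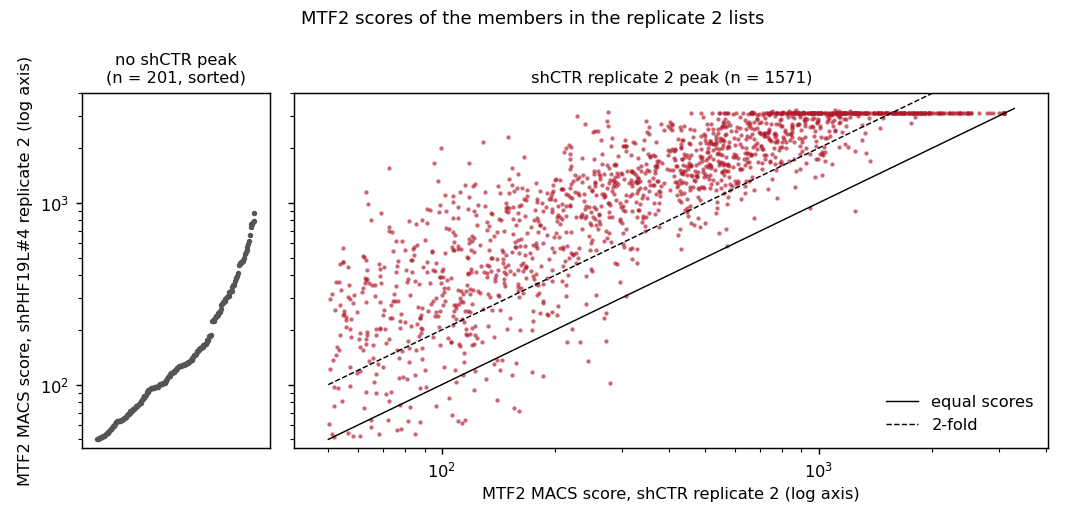
MTF2 MACS score of each member in shPHF19L#4 replicate 2 against shCTR replicate 2 on log axes (right, 1571 members), and of the 201 members without a shCTR peak in sorted order (left). Most points lie above the dashed 2-fold line, the row of points at 3100 is the upper end of the score, and no member without a shCTR peak exceeds 877.

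Of the 10 members with the highest shPHF19L#4 scores, 6 lay at promoters. The first was a region of 10682 bp over HOXB7 and HOXB8, homeobox genes of body patterning, on chromosome 17 from 46687457 to 46698138. Its MTF2 score was 1106 in shCTR and 3233 in shPHF19L#4. PHF19 was called there in both replicates, with 102 tags in replicate 1 and a score of 663 in replicate 2. Its H3K27me3 score was 177.9 in shCTR and 133 in shPHF19L#4 in replicate 1, but 98.0 and 1337 in replicate 2, which is lower after depletion in one replicate and higher in the other. At the promoter of UTS2R, the urotensin receptor, MTF2 scored 869 and 3221. At that of ATP2B2, a calcium pump of the plasma membrane, it scored 860 and 3163. NAV2, a neuron navigator gene, had scores of 1209 and 3214, and H3K27me3 was called there in shPHF19L#4 replicate 2 alone, with a score of 359. FNDC5, which encodes the precursor of irisin, had 1129 and 3204, and RAB11FIP4, an effector of RAB11, had 753 and 3185. A region in RBFOX3, a neuronal splicing factor, spanned 16602 bp and had 907 and 3152. The remaining members of this group lay between genes, 18888 bp from POU3F3 (836 and 3206), 153780 bp from GOLIM4 (667 and 3162) and 221091 bp from SEPTIN9 (277 and 3150). All 10 were above 3100 in shPHF19L#4, where 273 members in all stood at 3100 or more, so their order within that group carries little. Nor are they the members with the most reads. The authors' mean log2 concentration of MTF2 reads in shPHF19L#4 was at most 8.99 among these 10, at GOLIM4. It was 10.02 at EPOP and 9.97 at FOXP2, members that scored 3100.

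The members that neither control list contained had far lower scores, with a median of 120 and a highest of 877. That highest score belonged to the promoter of NCAN, which encodes the brain proteoglycan neurocan, on chromosome 19 from 19321834 to 19325486. PRDM16, a transcription factor of brown fat, had 794 at its promoter and ADGRL1, a latrophilin receptor, had 768. Promoters of CACNB2, a calcium channel subunit, and PCDH19, a protocadherin, had 619 and 595. The others of the 10 highest lay in PTPRN2 (786) and in TENM2, a synaptic adhesion gene (734), or between genes near CCDC160 (764), CRYBA4 (664) and CDH26 (572). None of the 10 had a PHF19 peak in either replicate. At PRDM16, PTPRN2, ADGRL1, PCDH19 and CDH26, H3K27me3 was called in shPHF19L#4 replicate 2 alone, with scores of 309, 291, 84.5, 160 and 246. At CCDC160 and CACNB2 it was called in both shPHF19L#4 lists and in no shCTR list. NCAN, TENM2 and CRYBA4 were marked already in shCTR replicate 1, with scores of 133, 1119 and 544. Of all 201 such members, 83.6% had an H3K27me3 peak in shCTR replicate 1 and 60.2% in replicate 2. The authors' mean log2 concentration of MTF2 reads in their DiffBind table was 5.05 in shCTR and 6.83 in shPHF19L#4 at PRDM16, and 4.38 and 6.62 at ADGRL1, so reads were present in shCTR although no peak was called.

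H3K27me3 was not used in choosing the members. In shCTR it was called in 79.9% of members in replicate 1 and 72.4% in replicate 2 (mean 76.1 ± 5.27, SD, n = 2), and in shPHF19L#4 in 83.0% and 96.0% (mean 89.5 ± 9.22, SD, n = 2). Both shPHF19L#4 shares were above both shCTR shares, and the means differed by 13.4 percentage points. The difference was 3.16 points in replicate 1 and 23.6 in replicate 2 (two-sided exact permutation test over the 4 lists, p = 0.333, the smallest that 2 lists against 2 can give). The members were selected on MTF2 in the same pair of conditions, so this test is not independent of the choice. The lists also differed in length beyond the members: H3K27me3 peaks covered 108 and 96.9 Mb in shCTR and shPHF19L#4 in replicate 1, but 30.4 and 159 Mb in replicate 2. How far this sets the members' shares was not tested. In the comparison regions the shares were 95.5% and 88.3% in shCTR and 90.0% and 93.8% in shPHF19L#4, which is a lower share in replicate 1 and a higher one in replicate 2.

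Most members were marked already in the control. An H3K27me3 peak in all 4 lists was found in 1050 members (59.3%) and in at least 1 list in 1742 (98.3%). For comparison regions these shares were 79.5% and 99.4%. Regions called in both shCTR replicates overlapped 1191 members (67.2%), and those called in both shPHF19L#4 replicates 1474 (83.2%), beside 87.5% and 89.3% of comparison regions. No shCTR list but both shPHF19L#4 lists marked 90 members (5.08%), beside 7 comparison regions (0.513%). The opposite pattern, a peak in at least 1 shCTR list and none in shPHF19L#4, was seen in 6 members and 38 comparison regions. Of the members marked in shPHF19L#4 replicate 2 alone, 77 of 102 (75.5%) were at a promoter.

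The H3K27me3 scores of the members depended on the replicate. In replicate 1 the median over 1303 members with a peak in both conditions was 369 in shCTR and 403 in shPHF19L#4, and the score was at least 2-fold higher in shPHF19L#4 in 240 (18.4%), beside 8.11% of all 23222 H3K27me3 regions with a peak in both lists. It was lower in 590 (45.3%), beside 57.5%. Among 1197 comparison regions, 12.8% were at least 2-fold higher and 59.0% lower. In replicate 2 the medians over 1256 members were 200 and 1708, and 1180 (93.9%) were at least 2-fold higher, beside 90.2% of all 9380 regions. Among 1186 comparison regions the replicate 2 share was 87.7%. The replicate 2 share of the members is near that of all H3K27me3 regions.

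**Figure D3:**
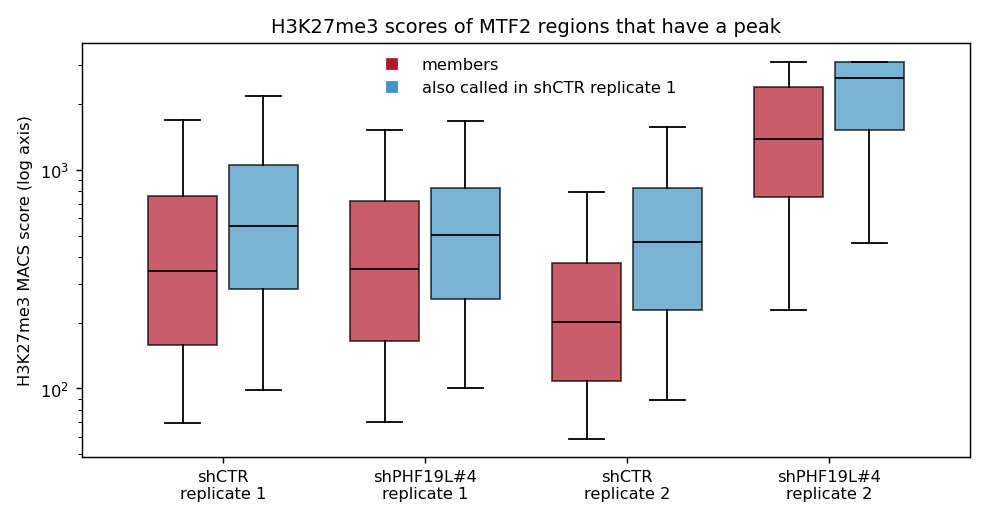
H3K27me3 MACS scores on a log axis for MTF2 regions with a peak, by condition and replicate, with members and regions also called in shCTR replicate 1 side by side. Boxes show the median and quartiles and whiskers the 5th and 95th percentiles. Members' medians are 345 and 351 in replicate 1 and 201 and 1376 in replicate 2 for shCTR and shPHF19L#4.

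A small group of 30 members (1.69%) had no H3K27me3 peak in any of the 4 lists, beside 8 comparison regions (0.587%). The highest MTF2 score among them was that of an intergenic region 9707 bp from TTLL10 on chromosome 1 (1097304 to 1101802), with 1498 in shCTR and 3100 in shPHF19L#4. PHF19 was called there in both replicates, with 89 tags and a score of 779. It was followed by the promoters of TLE4, a Groucho corepressor (478 and 830), of the zinc finger gene ZKSCAN7 (543 and 680) and of NALCN, a sodium leak channel (148 and 519). The fifth was an intergenic region of chromosome 7 near 61820072 (117 and 498), with the closest start, ZNF722, at a distance of 1637848 bp.

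PHF19 was called in both shCTR replicates in 139 members (7.84%) and 539 comparison regions (39.5%). By list, it was called in 149 members (8.41%) in replicate 1 and in 852 (48.1%) in replicate 2, compared with 40% and 80.6% of comparison regions. The replicate 1 list was short, with 1072 peaks against 14218. The authors' DiffBind table of PHF19 regions over input, which lists only regions under their P and FDR thresholds, overlapped 223 members (12.6%) and 711 comparison regions (52.1%). Members without PHF19 in either replicate numbered 910 (51.4%).

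Members with PHF19 differed from those without it in several other measurements. Where both PHF19 replicates had a peak, the median MTF2 score in replicate 2 was 1045 in shCTR and 3100 in shPHF19L#4. Where neither had one, it was 192 and 578. The median ratio was 2.15 with PHF19 and 3.60 without, but the upper end of the score limits the first. A promoter was overlapped by 71.9% of members with PHF19 in both replicates and 37.1% of those with none. H3K27me3 was called in 88.5% and 78.0% in shCTR replicate 1 and in 90.6% and 61.1% in replicate 2. In shPHF19L#4 it was called in 80.6% and 84.4% in replicate 1, the opposite order, and in 98.6% and 95.2% in replicate 2.

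The core subunits were rarely called at members in the control. An EZH2 peak was found in 111 members (6.26%) in shCTR replicate 1 and 266 (15.0%) in replicate 2, compared with 47.2% and 57.7% of comparison regions. SUZ12 peaks were found in 23 members (1.30%) and 10 (0.564%), compared with 12.5% and 13.9%, and no member had SUZ12 in both replicates. These lists were short, with 2060 and 1236 peaks for EZH2 and 1523 and 232 for SUZ12, of which 62 merged SUZ12 regions had a peak in both replicates. EZH2 and SUZ12 peaks of shPHF19L#4 cells were not analysed here. The authors' DiffBind tables give mean log2 read concentrations in both conditions, for regions under their P threshold alone. Their EZH2 table overlapped 892 members (50.3%) and 1089 comparison regions (79.8%). The authors' mean there had a median of 5.83 in shCTR and 7.00 in shPHF19L#4, but regions entered the table by a difference between these conditions. Of members at promoters, 74.2% overlapped a listed EZH2 region, and of those between genes 29.8% did. For SUZ12, 50 members (2.82%) and 433 comparison regions (31.7%) overlapped a listed region, the members with medians of 5.62 and 6.80. For H3K27me3, 229 did (12.9%), with 6.55 and 7.69, beside 42 comparison regions (3.08%). The shares of all MTF2 regions that overlapped the EZH2, SUZ12 and H3K27me3 tables are not given here. The MTF2 table, made from the same lists that chose the members, overlapped 1252 of them, with medians of 6.97 and 7.84. The comparison regions in that table had 8.30 and 9.15.

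**Figure D4:**
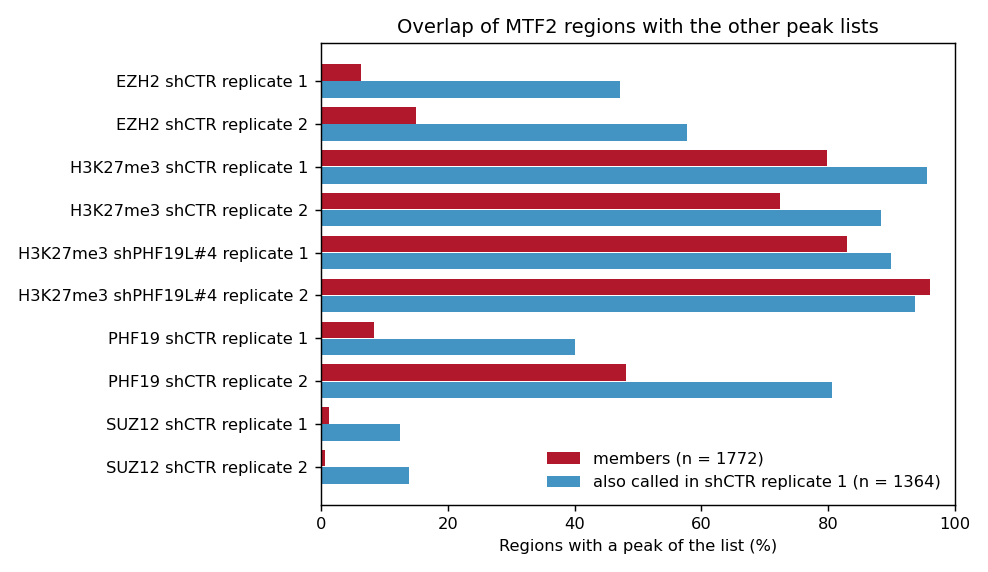
Percentage of MTF2 regions with a peak of each other list, for 1772 members and 1364 regions also called in shCTR replicate 1. Members have fewer EZH2, SUZ12 and PHF19 peaks in each list, and the H3K27me3 shares of both groups are above 72%.

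Target genes were counted where a region touched the gene body or the 2.5 kb before its start. They numbered 1137 for members and 992 for comparison regions. Of these, 152 were shared, which is 13.4% of the first and 15.3% of the second. A member lay at the promoter of 891 of 20163 protein-coding genes (4.42%), a comparison region at that of 870 (4.31%), and both at that of 47. The lists that follow are read beside these shares.

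Homeobox genes encode transcription factors of patterning and cell fate. Of 39 HOX genes, 6 (15.4%) had a member at the promoter, namely HOXB7, HOXB8, HOXA11, HOXC11, HOXD10 and HOXD11, and 2 (5.13%) had a comparison region. These are counts of genes, not regions, and they are small. HOXB7 and HOXB8 share the same member. HOXD11 scored 1005 for MTF2 in shCTR and 3100 in shPHF19L#4, HOXC11 687 and 2575, and HOXA11 573 and 1635. Of 148 other homeobox entries, where SHOX counts on X and on Y, the order was turned, with 26 (17.6%) and 60 (40.5%). Members lay at VAX1 (1398 and 3103), BARHL1 (1958 and 3100), the cardiac gene NKX2-5 (1600 and 3100) and POU2F2 (1595 and 3100). VAX1, BARHL1 and PAX6 also had a comparison region at the promoter.

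Other families of developmental transcription factors were divided in different ways. Of 45 forkhead genes, 9 (20%) had a member and 12 (26.7%) a comparison region, with none in both. FOXP2 stood at 3100 in both conditions, and its PHF19 score of 3100 and 238 tags were high for a member. FOXJ1, a gene of ciliated cells, had 1721 and 3100, FOXH1 865 and 3100, and FOXA3 239 and 2720. No SOX gene of 20 had a member, whereas 8 (40%) had a comparison region. Of 6 GATA genes, GATA6 had a member (2395 and 3100) and 3 had a comparison region. T-box genes had 3 members among 17, at TBX2 (2476 and 3100), TBR1 (1199 and 3100) and TBX21 (694 and 3079), and 1 comparison region. Of 22 neural bHLH genes, 5 had a member and 9 a comparison region. Among the former were NEUROD1 (1013 and 3100), BHLHE23 (766 and 3014), ATOH8 (1036 and 2282) and ASCL2 (332 and 1755).

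Signalling genes were found in both sets. Of 39 WNT ligands, receptors and antagonists, 6 (15.4%) had a member and 10 (25.6%) a comparison region. The ligands WNT10B (2099 and 3100), WNT2 (1431 and 3100) and WNT5B (924 and 3100) were among the members, as was the antagonist WIF1 (893 and 1531). Of 40 BMP and activin genes, 6 (15.0%) and 11 (27.5%) were found. Members lay at GDF6 (1127 and 3100), BMP3 (672 and 2791), and the BMP antagonists NOG (308 and 2042) and CHRDL2 (706 and 1973). NOTCH1 (1332 and 3100) and HES2 (1261 and 3100) were the genes with a member among 19 of the Notch pathway, where 5 had a comparison region. HES2 had a second member with 551 and 2588. GLI3, a transcription factor of Hedgehog signalling, had a member (395 and 1534) and also a comparison region at the promoter. Ephrins and Eph receptors had 3 and 4 of 22, with members at EFNB3 (1663 and 3100), EPHB6 (571 and 2648) and EFNB1 (85.8 and 585). FGF ligands and receptors had 5 and 7 of 27, with members at FGF19 (1224 and 3100), FGF12 (847 and 2436), FGF14 (356 and 1806) and FGF5 (180 and 693).

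Ion channels and neurotransmitter receptors formed the longest list, and 48 of 243 (19.8%) had a member at the promoter, compared with 38 (15.6%) with a comparison region. HCN2, a pacemaker channel, scored 885 for MTF2 in shCTR and 3100 in shPHF19L#4. The glutamate receptor subunit GRIN3B had 970 and 3100, the sodium channel subunit SCN4B 2094 and 3100, and the muscarinic receptor CHRM1 1159 and 3100. Of 53 clustered protocadherins, PCDHB1 alone had a member (365 and 1002), and of 86 ribosomal protein genes RPL38 alone (1106 and 2515). Neither list had a comparison region at a promoter. Of 35 genes of Polycomb complexes, CBX8 (1896 and 3100) and EPOP, a PRC2 partner (2528 and 3100), had a member, and 3 had a comparison region.

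**Figure D5:**
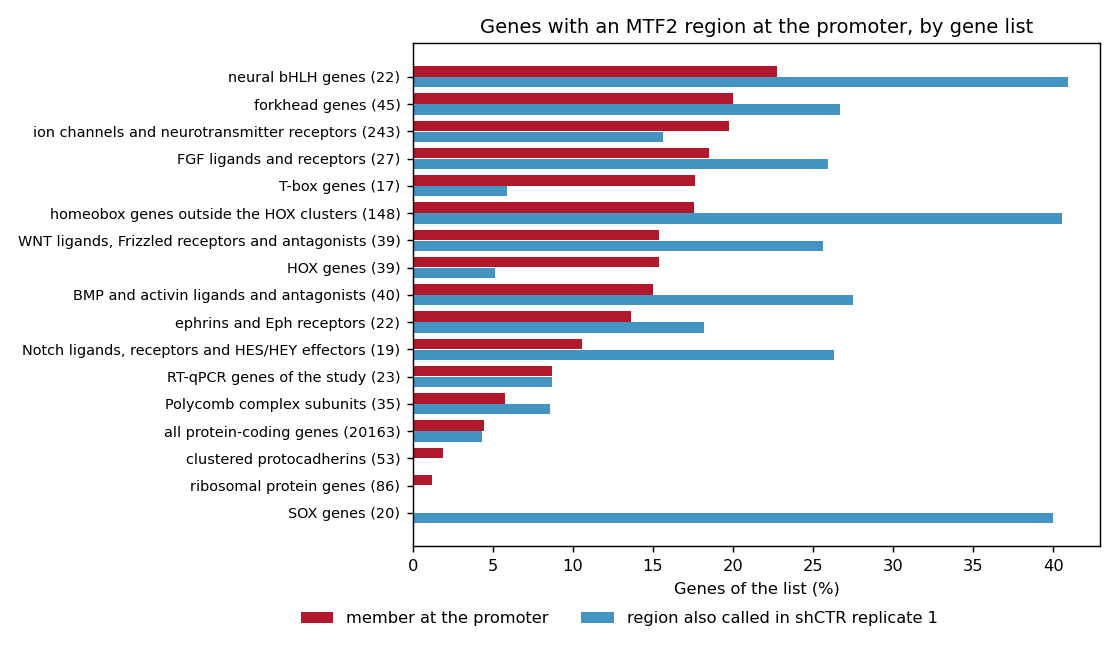
Percentage of genes in each list of at least 15 genes with a member (red) or a region also called in shCTR replicate 1 (blue) at the promoter, with the number of genes in brackets. Homeobox genes outside the HOX clusters stand at 17.6% and 40.5%, HOX genes at 15.4% and 5.13%, SOX genes at 0% and 40%, and all protein-coding genes at 4.42% and 4.31%.

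Among 10 genes that the study examined by ChIP-qPCR or in browser views, MLLT6 had a member at its promoter, with MTF2 scores of 2225 and 3100 and a PHF19 score of 3100. EFNA3, ATF3, IGFBP3, SHH, DUSP4, EGLN3 and CYP24A1 had a comparison region there instead. All of these but EGLN3 stood at 3100 in both conditions. The EGLN3 promoter region scored 87.9 in shCTR and 265 in shPHF19L#4. EGLN3 had further members inside its long annotated interval, none with a peak in shCTR replicate 2, and these scored 79.7, 112 and 96.9 in shPHF19L#4. Of the comparison regions there away from the promoter, 1 had a lower score after depletion (120 and 63.45). Another had no shCTR replicate 2 peak and scored 86.9 in shPHF19L#4. GATA2 had neither. Of 23 genes of growth, invasion and angiogenesis with RT-qPCR assays, LOX, a collagen cross-linking enzyme (993 and 3100), and the cell cycle kinase CDK4 (1181 and 2876) had a member. The CDK4 region lay closest to the start of its neighbour MARCHF9. CXCR4 and DUSP4 had a comparison region.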

How the data were processed

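ChIP-seq peak lists of MTF2 and H3K27me3 from shCTR and shPHF19L#4 DU145 cells, and of PHF19, EZH2 and SUZ12 from shCTR cells, were examined with 2 replicates each. Bowtie placed the reads on hg19, or on hg19 joined to the fly genome dm3 where spike-in chromatin was present, and reads with several places were dropped. MACS then called each replicate separately against its control, and versions are not given in the sources used here. The score is the authors' MACS score as deposited. The PHF19 list of replicate 1 holds tag counts as deposited by the authors, and the MTF2 lists of replicate 1 hold positions without a value. The log2 values are mean concentrations for each condition that the authors made with DiffBind, without an SD. The folds, P values and FDR in those tables were not used.

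Peaks sharing at least 1 bp were merged in pandas 2.3.3 (Python 3.11.15, numpy 2.4.6), and the highest score of a region was taken. Functions for overlaps were tested on 20 simulated sets. Genes are those of GENCODE release 44 mapped to GRCh37, counted by gene identifier, so a gene on both X and Y counts on each. Sequence was read with pysam 0.24.0, tests and intervals used scipy 1.17.1, and figures matplotlib 3.10.9. Members and gene lists were chosen with earlier results of these data known. Named were the 10 members with the highest shPHF19L#4 replicate 2 score, the 10 highest without a shCTR replicate 2 peak, the 5 highest without H3K27me3, up to 4 genes a list, and the ChIP-qPCR and browser genes. Genes listed beyond these and the regions nearest to the threshold were chosen after their values were seen. Some genes of the lists are not reported here. Regions are not replicates, so no test was run over them. The only test was an exact permutation of the 4 H3K27me3 lists. Its p is the share of relabellings of these lists that give a difference in means at least as large in either direction. Read depth is unknown, and the alternatives are given in the closing section.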

Additional observations from a re-analysis of the deposited data

How the results depend on the processing

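Of 56 alternative values, 24 stayed within the 95% interval of the main value, or within 1.5 times for a count, and 32 moved. With either shPHF19L#4 MTF2 replicate left out, the number of members (1772) was between 2532 and 33082, target genes (1137) between 1327 and 9944, the promoter share (48.3%) between 28.2% and 36.4%, the share with a shCTR replicate 2 peak (88.7%) between 39.8% and 69.0%, the median score ratio (3.09) between 1.65 and 3.16, the share with PHF19 in both replicates (7.84%) between 0.692% and 5.81%, and the share in H3K27me3 of both shPHF19L#4 replicates (83.2%) between 42.0% and 70.1%. The higher number of members comes from replicate 2 alone, whose list is the longer. Leaving out either H3K27me3 list in place of an MTF2 list put that last share between 83.0% and 96.0%.

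Without any shCTR replicate 2 peak there were 201 members and 78 target genes, with 11.9% at promoters, 79.6% in H3K27me3 and 0.498% with PHF19. With scores of at least 100 in every scored list, 51.4% were at promoters, 81.6% had a shCTR replicate 2 peak and 73.4% were in H3K27me3. The promoter share was 46.0% when an overlap had to cover at least 50% of the shorter feature, 45.9% with a 1 kb window and 61.0% with the starts of all annotated genes. The score ratio was 3.46 with mean scores. H3K27me3 in either shPHF19L#4 replicate covered 98.0%. PHF19 in either replicate was found in 48.6% and the authors' PHF19 regions in 12.6%. Of the alternatives chosen after seeing the data, leaving out scores of 3100 or more gave a ratio of 3.24, shCTR replicate 2 peaks of at least 500 were found in 35.9%, and H3K27me3 of both shCTR replicates in 67.2%. The cause of these moves was not tested.

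With the replicate number as a block (paired sign flips), the difference in H3K27me3 share was the same 13.4 points (exact permutation p = 0.5, the smallest for 2 pairs). It was between 3.16 and 23.6 points with either replicate left out. The labels share numbers only, and 2 pairs cannot show whether they pair the samples. Depth is unknown, the score ends near 3100, and peak lists are not scaled by the spike-in, so an absent peak in a short list (replicate 1 for MTF2 and PHF19, replicate 2 for EZH2 and SUZ12) does not show absent protein.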
